A study of Homo sapiens with 2 samples.

Results

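The 40 genes described here act in the repair of the DNA damage that platinum drugs make. They were chosen by symbol from a list of nucleotide excision, Fanconi, translesion and mismatch repair genes and the kinases ATM and ATR. The choice was not made by their values, but earlier results of these data were known. All 40 symbols matched a row of both count tables, among 58302 gene rows and 22827 genes with a count. Of the members, 37 were measured, meaning that they reached a scaled level of 1 CPM (a count relative to library size) in at least 1 library, as 13231 genes did in all. FANCM, BRCA2 and REV3L stayed under 1 CPM in both libraries.

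RNA was sequenced from HK-2, an immortalised human proximal tubule line grown in 10% fetal bovine serum at passages 7 to 11. One group, Ad-GFP, had received an adenovirus carrying GFP, a fluorescent protein, and the other, Ad-Bmal1, an adenovirus carrying the Bmal1 coding sequence, the clock transcription factor that pairs with CLOCK. The labels expand HK-2 as human kidney 2 for Ad-GFP and 3 for Ad-Bmal1, which is read here as 1 line. Cells of both were collected after 24 h of infection, so both groups carry a virus and no uninfected cells were compared. The series title concerns cisplatin injury of the kidney, but neither library was labelled as treated with cisplatin. Each group was 1 library, so no value below has a replicate check, no p-value is given, and every difference describes these 2 libraries.

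Cisplatin joins neighbouring bases within a strand and also bases of opposite strands. Nucleotide excision repair removes the former: the lesion is recognised, the helix is opened, the damaged stretch is cut out and the gap is filled and sealed. The Fanconi pathway unhooks crosslinks between strands at stalled replication forks and hands the broken strand to homologous recombination, while translesion polymerases copy past the remaining adduct. Mismatch repair proteins can sense platinum adducts, and ATR and ATM signal stalled forks and strand breaks. XPA, a scaffold of excision repair, is known as a gene under circadian control in mouse tissues.

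The libraries held 20032652 counts (Ad-GFP) and 20051735 counts (Ad-Bmal1), so 1 CPM was worth 20.3 and 19.8 counts. Counts of BMAL1 itself were 204 and 133 (ratio 0.667, with a 95% counting interval of 0.532 to 0.834), so the gene the vector was to raise went against the label. Transcripts of the vector cannot be told from those of the cell in gene counts, and whether the vector's RNA was counted at all is not given in the sources used here. Directions below follow the labels as deposited, and an exchange of the labels, which was not tested, would turn every one of them. Of 9 proximal tubule markers 2 were measured, GGT1 and ALPL, while LRP2 and SLC22A6 had no count in either library. Keratin 8 and 18 genes were abundant, PTPRC, the leukocyte marker, was at 0 in both libraries, and no leukocyte or endothelial marker on the lists was measured. Of 6 markers of cultured kidney epithelium 5 were measured, with sums of 63303 and 52797 counts. Of their intervals 4 lay below 1 (80.0%, against 21.6% of all measured genes). CDH1, the E-cadherin gene on the same list, was not measured, with 1 and 4 counts. VIM, the vimentin gene, was abundant, with 21084 and 15528 counts. Of 5 hepatocyte markers 3 were measured: ALB, serum albumin, had 9 and 165 counts and HP, haptoglobin, 2 and 40, while SERPINA1 had 5999 and 5011. APOA1 and TTR, under 1 CPM, had 0 counts in Ad-GFP and 15 and 9 in Ad-Bmal1. The 5 measured fibroblast and smooth muscle markers summed to 2892 and 3140 counts, with 1 interval above 1 (COL1A1) and 2 below (DCN and TAGLN). The part of these marker differences in any value below was not tested.

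Because BMAL1 and CLOCK bind the E-box CACGTG, the promoters of the members were searched for it. The RefSeq windows, on GRCh38.p14, ran from 250 bases before to 50 after each gene's start. They covered 37 of the 40 members, and RPA2, RPA3 and FANCI had no entry. Some genes have several starts, so the 37 had 49 windows. The motif, which reads the same on both strands, was found in 6 members and in 6 of their 49 windows. That is 12.2% of windows, against 7.26% of all 35116 windows and 9.52% of 14196 windows of measured protein-coding genes. The sites of the 5 measured members with the motif are printed with up to 12 flanking bases on each side, on the strand of the gene, because they put the members with an E-box beside their ratios. Capitals mark the E-box.
ERCC6: gtccctccaaacCACGTGgtcttgcccgtg
RPA1: ccatgggtgggtCACGTGggccgcgcctcg
LIG3: gcaactacgaccCACGTGgcagacgggggc
FANCC: atgcactgctgaCACGTGtgcgcgcgcgcg
REV1: gtCACGTGccgcccaggcgc

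The ERCC6 stretch is chr10:49539153-49539182 (minus strand), with the motif starting 49 bases upstream of the start. RPA1 is chr17:1829895-1829924 (plus strand, 98 bases upstream) and LIG3 chr17:34980428-34980457 (plus strand, 72 bases upstream). FANCC is chr9:95317677-95317706 (minus strand, 15 bases downstream of the start, within the transcript), and REV1 chr2:99490248-99490267 (minus strand, 248 bases upstream, at the edge of its window). BRCA2 was the other member with the motif, 48 bases upstream. The variant CACGTT, searched on both strands (as CACGTT or AACGTG) and with no site counted under both motifs, was found in 5 members (XPC, DDB1, FANCE, FANCM and REV3L, of which the last 2 were not measured). Those were 5 of the 49 windows, or 10.2%, against 5.34% of all windows and 5.83% of those of measured protein-coding genes. A match is a run of letters and not a bound site.

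Ratios, here and below the scaled count in Ad-Bmal1 over that in Ad-GFP, did not set the members with an E-box apart. They ran from 0.870 (ERCC6) to 1.33 (BRCA2) in the 6 members with CACGTG, with a median of 1.04. In the 31 without it they ran from 0.796 to 1.60, with a median of 1.05. XPA, which is known for clock control, held neither motif in its window.

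The members differed far more from each other than between the libraries. In TPM (a relative level that divides counts by transcript length) the levels ran from 0.0872 for BRCA2 to 166 for RPA1. RPA1, RPA2 and DDB1 were the most abundant, at 154, 149 and 135 TPM in Ad-GFP and 166, 161 and 148 in Ad-Bmal1. RPA1 and RPA2 coat single-stranded DNA during repair and replication, and DDB1 is the adaptor of the CUL4 ubiquitin ligases. The 10 lowest members were BRCA2, FANCM, REV3L, ATM, POLK, ATR, ERCC4, ERCC5, BRIP1 and ERCC6, all between 0.0872 and 1.40 TPM in both libraries. Of these, ERCC5 shares most of its exon bases with a read-through gene, as given below, so its level may be understated. The 10 highest were RPA1, RPA2, DDB1, ERCC2, RPA3, LIG1, XRCC1, FANCG, ERCC3 and ERCC1, between 31.7 and 166 TPM.

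**Figure D1:**
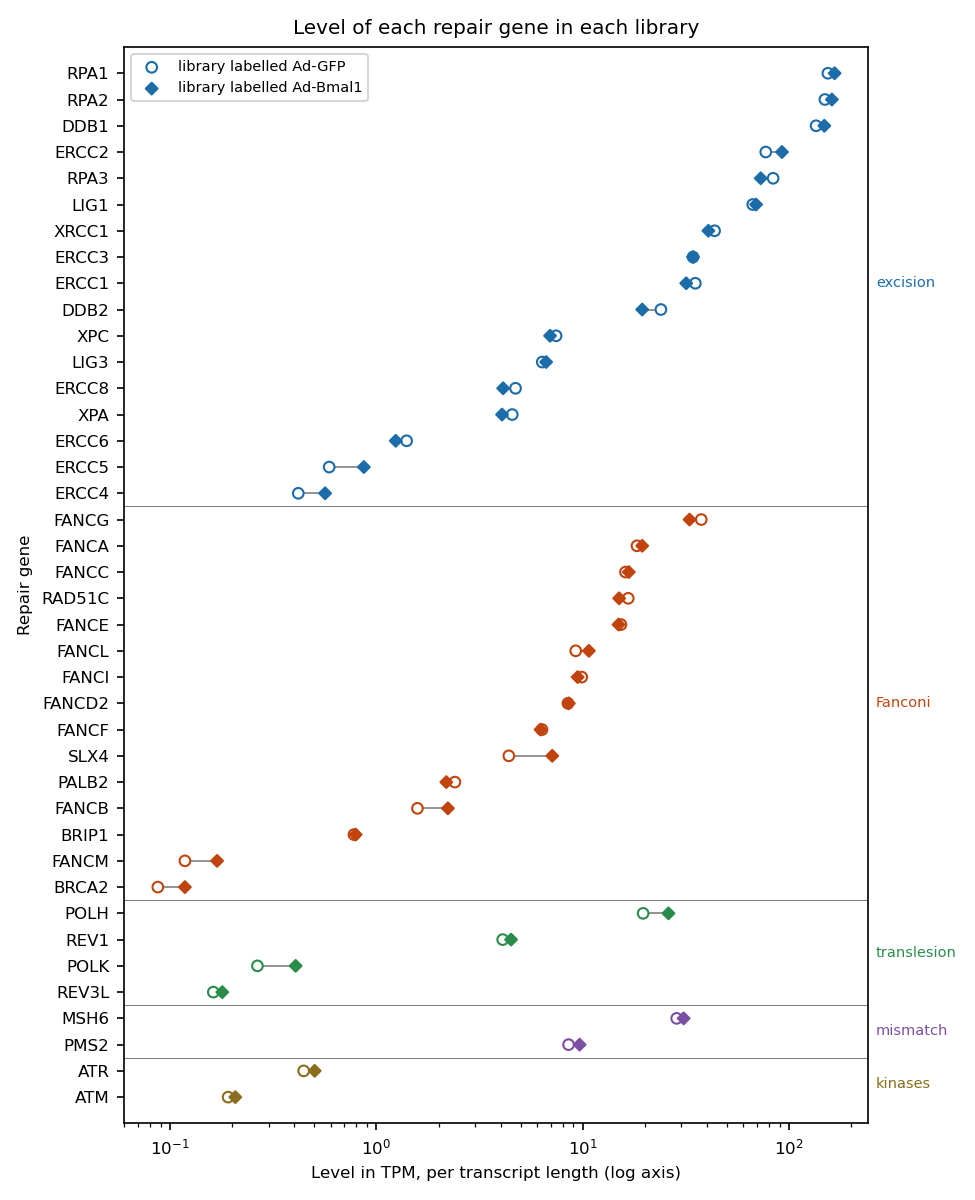
Level of each of the 40 repair genes in TPM on a log axis, ordered by level within each branch; open circles are the library labelled Ad-GFP and filled diamonds the library labelled Ad-Bmal1. The members run from BRCA2 at 0.0872 TPM to RPA1 at 166 TPM, and the distance between the marks of 1 gene is small beside that range.

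Some partners that act together were at unequal RNA levels and others were close to even. These levels divide by the longest coding transcript, which need not be the one expressed. ERCC1 and LIG3 also share exon bases with other genes, as given below. ERCC4, the catalytic subunit of the nuclease that cuts 5′ of the lesion, had 0.418 and 0.564 TPM in Ad-GFP and Ad-Bmal1, against 35.1 and 31.7 for ERCC1, its non-catalytic partner. The ratio of ERCC4 to ERCC1 was thus 0.0119 and 0.0178. LIG3 and XRCC1, a ligase and its scaffold, stood at 0.146 and 0.163. FANCD2 and FANCI, which form 1 clamp on DNA, were close to even at 0.858 and 0.907. RPA2 to RPA1 was 0.969 and 0.970, whereas RPA3, the smallest subunit of the same trimer, stood at 0.544 and 0.438 of RPA1.

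The low members shared long, AT-rich transcripts. The 10 lowest had transcripts of 5143 to 13147 bases with 34.7% to 43.2% G and C, and the 10 highest had 1752 to 4506 bases with 45.9% to 60.0%. Across the 40 members the log2 level had a Pearson r of 0.71 with percent GC (Spearman rho 0.75) and of -0.61 with log2 length (rho -0.55). In the 37 measured members alone these were 0.67 (rho 0.7) and -0.5 (rho -0.45). Across 11889 measured protein-coding genes they were 0.33 (rho 0.36) and -0.47 (rho -0.44), so with the same filter the relation to length was near that of genes in general. These are descriptions across genes, which share the libraries, and longer transcripts enter the level itself through its denominator. The 9 members under 40% GC had a median level of 0.328 TPM, and the 6 measured among them one of 0.617 TPM, against 3.07 TPM for 1726 measured genes in that range. The 8 members at 55% or more had a median of 34.2 TPM, against 26.1 for 3802 genes. MSH6, which finds mismatches, departed from the pattern, with 7476 bases, 40.8% GC and 28.5 and 30.8 TPM. Whether base composition affected the recovery of these transcripts was not tested.

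**Figure D2:**
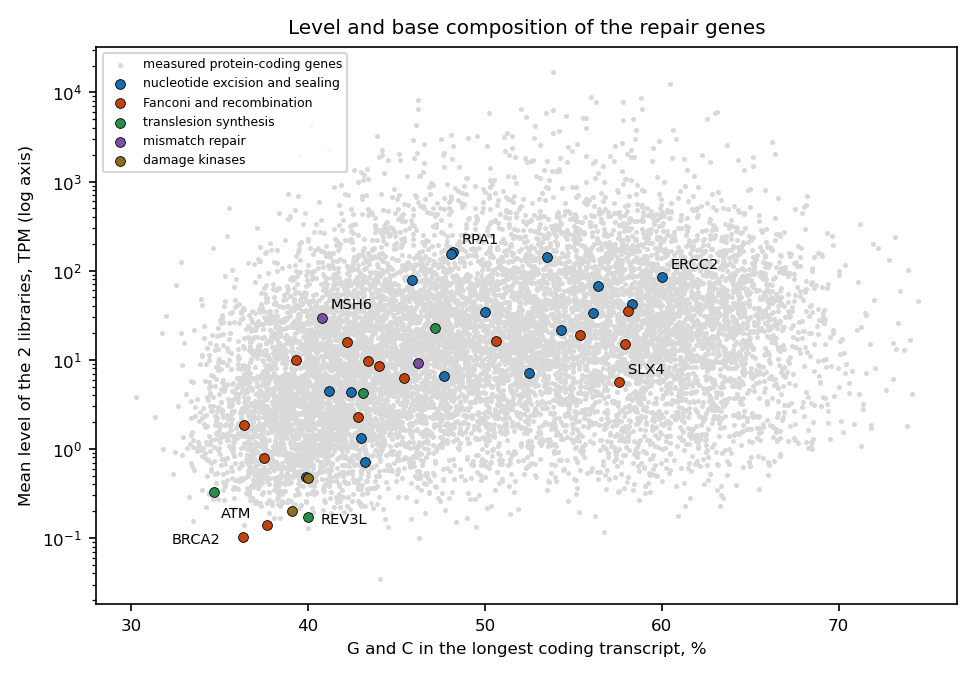
Mean level of the 2 libraries in TPM (geometric mean, log axis) against the percent of G and C in the longest coding transcript, for the 40 repair genes (coloured by branch) and measured protein-coding genes (grey). BRCA2, REV3L and ATM sit at the lower left and ERCC2 at the upper right, while MSH6 lies above other members of its composition.

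Between the libraries the repair genes as a list were level. In bulk RNA fewer cells expressing a gene and less RNA per cell cannot be told apart. The median log2 ratio of the 37 measured members was 0.03, and that of all measured genes 0.00. Ratios of 21 measured members lay above 1 and of 16 below. The middle 95% of members ran from 0.848 to 1.51, and of all measured genes from 0.545 to 1.74. Median counts were similar, at 412 and 357 for the members and 363 and 352 for all measured genes.

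By the counting interval alone, a smaller share of members than of all measured genes differed. The fold rules passed too few members to set apart from the background. By the interval rule, under which the 95% counting interval lies wholly on one side of 1, 6 members were higher in Ad-Bmal1 and 5 lower. Those are 16.2% and 13.5% of the 37, and the background over all 13231 measured genes was 23.8% higher and 21.6% lower. The interval covers counting error alone, so a gene can pass it through ordinary variation between cultures. At 1.5-fold or more with an interval that excludes 1, 1 member was higher and none lower, against 4.41% and 4.90% of all measured genes. At 2-fold no member passed in either direction, against 1.13% and 1.74%.

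**Figure D3:**
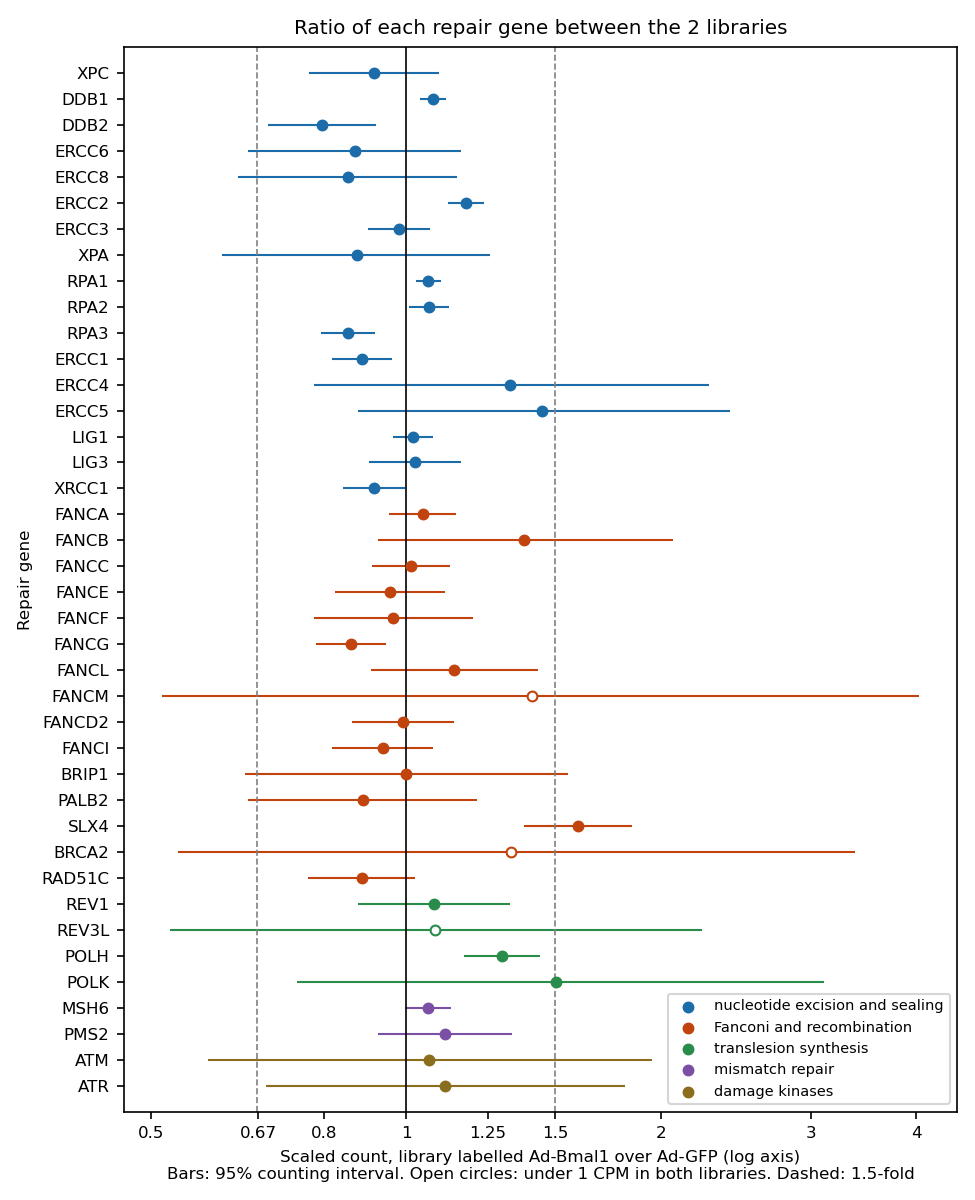
Ratio of the scaled counts, Ad-Bmal1 over Ad-GFP, for each of the 40 repair genes on a log axis, with 95% counting intervals; open circles are members under 1 CPM in both libraries and dashed lines mark 1.5-fold. SLX4 is the member beyond 1.5-fold whose interval excludes 1, and intervals are widest for the low members such as FANCM and BRCA2.

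Depth set how much could be seen. Intervals of 15 measured members (40.5%, against 32.3% of all measured genes) lay wholly within 1.25-fold of even. Those of 12 reached 1.5-fold or beyond in at least 1 direction. Apart from SLX4, the intervals of these 12 also included 1, so at this depth neither an even level nor a 1.5-fold difference can be told apart in ERCC4, ERCC5, ERCC6, ERCC8, XPA, FANCB, BRIP1, PALB2, POLK, ATM and ATR.

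SLX4 had the largest difference of the members whose interval excluded 1. It encodes the scaffold that holds the structure-specific nucleases, among them ERCC1 with ERCC4, at an unhooked crosslink. SLX4 (ENSG00000188827, chromosome 16, 3581181 to 3611598, GRCh38) had 306 counts in Ad-GFP and 477 in Ad-Bmal1. The level in Ad-Bmal1 was 1.60 times that in Ad-GFP (1.38 to 1.85), above 96.1% of measured genes. With a linear trend on transcript length removed its ratio was 1.49 (1.29 to 1.72), which is under the 1.5-fold rule. The gene overlapping its exons on the other strand had no count in either library. Of the nuclease that SLX4 holds, ERCC4 had 27 and 35 counts (ratio 1.33, 0.780 to 2.28) and ERCC1 was lower.

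**Figure D4:**
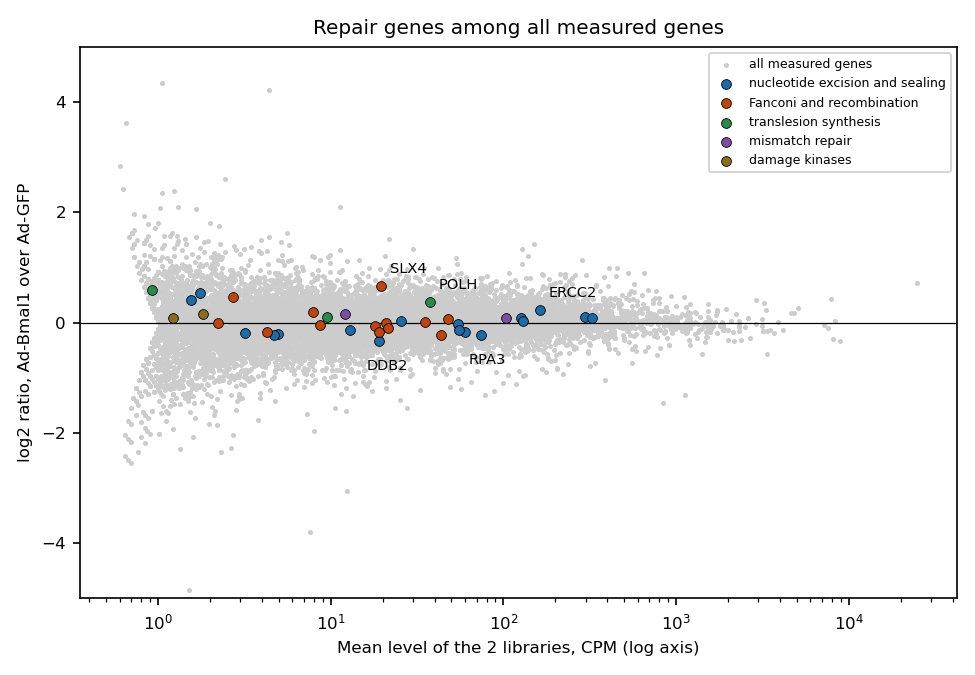
log2 ratio, Ad-Bmal1 over Ad-GFP, against the mean level of the 2 libraries in CPM (log axis) for all measured genes (grey) and the 37 measured repair genes (coloured by branch). The members lie inside the grey cloud, with SLX4 and POLH near its upper side and DDB2 and RPA3 below the line.

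In damage recognition the genes went different ways. DDB2, which binds the lesion and recruits XPC, had 428 and 333 counts, 1.26-fold lower in Ad-Bmal1 (1.09 to 1.45; chromosome 11, 47214465 to 47239240). Its partner DDB1 had 5816 and 6118 counts and was 1.08-fold higher (1.04 to 1.12). The ratio of DDB2 to DDB1 therefore fell to 0.740 of its value in Ad-GFP (0.636 to 0.860), a comparison within each library that needs no scaling. It still holds any trend on transcript length, and DDB2 has the shorter transcript (1870 against 4506 bases). With that trend removed from each gene, DDB2 had a ratio of 0.824 and DDB1 of 1.04. No pair ratio here or below was corrected for length. XPC, the lesion sensor of the whole genome, had 272 and 244 counts and a ratio of 0.918 (0.769 to 1.10). DDB2, XPC and POLH are known p53 targets. A list of 17 other p53 targets had 16 measured members with a median log2 ratio of -0.08. Of their intervals 3 lay above 1 (18.8%, against 23.8% of all measured genes) and 6 below (37.5%, against 21.6%). By the 1.5-fold rule 1 of them was higher, against 4.41% of all measured genes.

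ERCC6 and ERCC8, the sensors of RNA polymerase stalled at a lesion, both had ratios below 1 with intervals that included it. ERCC6 was at 0.870 (0.651 to 1.16) on 107 and 91 counts, and ERCC8 at 0.854 (0.634 to 1.15) on 103 and 86.

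Of the genes that open and verify the damaged stretch, ERCC2, RPA1 and RPA2 were higher and RPA3 lower. ERCC2 and ERCC3 encode the helicases of the transcription factor TFIIH. ERCC2 (chromosome 19, 45349837 to 45370918) had 3037 and 3492 counts and was 1.18-fold higher (1.12 to 1.24), whereas ERCC3 had 1113 and 1067 counts and a ratio of 0.981 (0.901 to 1.07). The ratio of ERCC2 to ERCC3 was 1.20 times as large in Ad-Bmal1 (1.09 to 1.32). XPA, which checks the lesion and positions the nucleases, had 69 and 59 counts. Its ratio was 0.875 (0.607 to 1.26), an interval that takes in both an even level and one 1.5-fold lower.

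The subunits of the RPA trimer did not keep their proportions. RPA1 had 6378 and 6624 counts (ratio 1.06, 1.03 to 1.10), and RPA2 had 2495 and 2595, a ratio again of 1.06 (1.007 to 1.13). RPA3 (chromosome 7, 7636518 to 7718607) had 1615 and 1349 counts and was 1.17-fold lower (1.09 to 1.26). RPA3 relative to RPA1 was 0.804 of its value in Ad-GFP (0.742 to 0.872), and relative to RPA2 0.803 (0.733 to 0.880), while RPA2 relative to RPA1 was 1.00 (0.938 to 1.07). The interval of RPA2 included 1 under total-count scaling, DESeq2 size factors and totals without the most abundant genes, and that of RPA1 did so with the length trend removed. RPA3 was lower by the interval rule under every scaling and trend tried.

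Among the incision nucleases ERCC1 was 1.13-fold lower (1.04 to 1.22) on 1285 and 1114 counts. ERCC1 shares 28.6% of its exon bases with POLR1G on the opposite strand, which had 315 and 323 counts. Likewise LIG3 shares 29.1% with RFFL (320 and 280 counts), FANCA 23.6% with ZNF276 (163 and 173) and XPC 6.63% with the more abundant LSM3 (1594 and 1758). Further opposite-strand overlaps include FANCL with VRK2 (18.74%, 67 and 89 counts) and MSH6 with FBXO11 (16.24%, 127 and 191). REV1 shares 10.97% with EIF5B (185 and 192) and FANCI 5.9% with the more abundant POLG (1281 and 1405). The strand setting of the counting is not given in the sources used here. Without strand, reads in such overlaps cannot be told apart. ERCC5, which cuts 3′ of the lesion, had 29 and 41 counts and a ratio of 1.45 (0.877 to 2.41). On the same strand ERCC5 shares 63.25% of its exon bases with the read-through gene BIVM-ERCC5, which had 0 counts in both libraries. It shares 19.07% with BIVM (72 and 60 counts). Reads in these exons are ambiguous under any strand setting, so the level of ERCC5 may be understated, which was not tested.

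The sealing genes were close to even. LIG1, the replicative ligase, had a ratio of 1.02 (0.964 to 1.08) and LIG3 1.03 (0.905 to 1.16). XRCC1 was 1.09-fold lower with an interval just short of 1 (1.00 to 1.19 as a fold), and that interval included 1 with the length or the GC trend removed. Over the 17 excision and sealing genes the median log2 ratio was -0.03, with 4 intervals above 1 and 4 below. Those are 23.5% each way, near the 23.8% and 21.6% of all measured genes.

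The Fanconi core complex, a ubiquitin ligase that marks FANCD2 and FANCI, had 8 members, of which 7 were measured. By the interval rule 1 of the 7 was lower (14.3%, against 21.6% of all measured genes) and none higher (against 23.8%). FANCG (chromosome 9, 35073835 to 35080016), an adaptor of the complex, had 943 and 794 counts and was 1.16-fold lower (1.06 to 1.28). FANCA, a partner of FANCG, had 952 and 973 counts and a ratio of 1.05 (0.955 to 1.15). The ratio of FANCG to FANCA was 0.824 of its value in Ad-GFP (0.722 to 0.940).

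The other core genes had intervals that included 1. FANCC stood at 1.015 (0.913 to 1.13), FANCE, which contacts FANCD2, at 0.958 (0.825 to 1.11) and FANCF at 0.966 (0.778 to 1.20). FANCL, the ligase subunit, was at 1.14 (0.908 to 1.43), and FANCB, on the X chromosome, had 46 and 62 counts and a ratio of 1.38 (0.927 to 2.07). FANCM, the translocase that anchors the complex, had 8 and 11 counts (1.41, 0.515 to 4.03), too few to tell a difference of either direction.

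Of the clamp and its followers SLX4 alone passed the interval rule. FANCD2 had 423 and 410 counts (0.992, 0.864 to 1.14) and FANCI 448 and 411 (0.939, 0.819 to 1.08), and their ratio to each other was 1.06 times that in Ad-GFP (0.869 to 1.28). RAD51C, a paralog that helps load the recombinase, was at 0.887 (0.767 to 1.02), an interval that fell below 1 under total-count scaling. PALB2, which brings BRCA2 to breaks, was at 0.890 (0.651 to 1.21), and the helicase BRIP1 had 45 and 44 counts (1.00, 0.645 to 1.55). BRCA2 had 10 and 13 counts (1.33, 0.539 to 3.39). The 13 measured Fanconi members had a median log2 ratio of -0.01, with 1 interval above 1 and 1 below. Those are 7.69% each way, against 23.8% and 21.6% of all measured genes.

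Of the 3 measured translesion members POLH alone passed the interval rule. That is 33.3% higher, against 23.8% of all measured genes, and none lower, against 21.6%. POLH (chromosome 6, 43576150 to 43615660) encodes polymerase eta, which copies past platinum adducts on neighbouring guanines. It had 665 and 844 counts and was 1.30-fold higher in Ad-Bmal1 (1.17 to 1.44), above 87.3% of measured genes, and from 1.27 to 1.30 under every scaling and trend tried. REV1, the scaffold of the translesion polymerases, had 186 and 196 counts and a ratio of 1.08 (0.878 to 1.33). REV3L, the catalytic subunit of polymerase zeta, had 17 and 18 counts (1.08, 0.527 to 2.24). POLK, polymerase kappa, had 15 and 22 counts (1.501, 0.744 to 3.11) and was measured only through Ad-Bmal1, where it reached 1.11 CPM.

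The mismatch genes and the kinases had intervals that included 1. MSH6 had 2036 and 2113 counts and a ratio of 1.06 (0.999 to 1.13). PMS2, the nuclease subunit of mismatch repair, had 233 and 253 counts (1.11, 0.926 to 1.33), but its partial copy PMS2CL had 221 and 214 counts, and reads may be split between them. The summed counts had a ratio of 1.05 (0.923 to 1.20). ATM had 24 and 25 counts (1.07, 0.584 to 1.95) and ATR 35 and 38 (1.11, 0.683 to 1.81).

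The side of 1 on which 8 members lay depended on the processing. LIG1, FANCC and BRIP1 were on the other side under total-count scaling and with the length trend removed, BRIP1 also under every other scaling and with the GC trend removed. LIG3, FANCA, REV3L, MSH6 and ATM were on the other side with the length trend removed alone. Across the 40 members the log2 ratio had a Pearson r of 0.44 with log2 transcript length (rho 0.48), and across the 37 measured members one of 0.38 (rho 0.43). Across 11889 measured protein-coding genes it was 0.24 (rho 0.27). The members therefore shared a tilt that the libraries show in general, with longer transcripts higher in Ad-Bmal1. With percent GC the ratio had an r of -0.30 in the 40 members, -0.21 in the 37 measured members and -0.06 in the wider set of measured genes.

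Other genes of the same pathways numbered 89, of which 85 were measured. Their median log2 ratio was 0.00, with 17 of 85 intervals above 1 and 22 (25.9%) below, against 23.8% and 21.6% of all measured genes. Of the 85, 2 genes were higher and 1 lower by the 1.5-fold rule, against 4.41% and 4.9% of all measured genes. By the 2-fold rule there were none, against 1.13% and 1.74%. The translocase HLTF, which remodels stalled forks, had 466 and 290 counts and was 1.57-fold lower (1.35 to 1.83). POLQ, the polymerase of microhomology end joining, had 29 and 52 counts (1.83-fold higher, 1.14 to 3.00) and the checkpoint clamp loader gene RAD17 had 56 and 91 (1.66-fold, 1.18 to 2.36). Of 15 other excision genes measured 3 intervals lay above 1 and 7 below, of 11 other Fanconi genes 2 and 5. Of 14 checkpoint genes measured 6 lay above and 1 below. Of 14 gap filling genes 2 lay above and 4 below, and of 19 homologous recombination genes 3 and 3. For 8 other translesion genes these were 1 and 2, and for 4 other mismatch genes 0 and 0. Below 1 lay 46.7% and 45.5% of the excision and Fanconi genes and 7.14% of the checkpoint genes, against the same background of 21.6%. Above 1 lay 42.9% of the checkpoint genes, against 23.8%. Those 6 checkpoint genes included long transcripts (MDC1 7576, TOPBP1 6152 and RNF168 5347 bases) and shorter ones (CLSPN 4769, RAD17 3233 and HUS1 2935). With the length trend removed their ratios ran from 1.23 (RNF168) to 1.65 (RAD17). The part of transcript length in these shares was not tested.

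Many repair genes follow S phase, so replication genes were read beside them. The 17 S-phase genes had a median log2 ratio of -0.10, with 4 intervals above 1 (23.5%), 9 below (52.9%) and no gene past 1.5-fold. The 10 mitosis genes had a median of 0.10, with 5 above, 1 below and 1 past 1.5-fold, the proliferation marker MKI67 (1.51-fold higher, 1.42 to 1.62). The background shares were 23.8% above and 21.6% below, and by the 1.5-fold rule 4.41% higher and 4.9% lower. The part of these differences in the values of the S-phase-linked members such as LIG1, RPA1, FANCD2 and FANCI was not tested.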

How the data were processed

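Polyadenylated RNA of HK-2 cells was read in pairs of 150 bp, per the labels' protocols. The authors deposited raw whole-number counts, 1 library per group, and sample titles gave the groups. HISAT2 and GRCh38 (hg38) are named in the submitters' processing notes. How reads were counted, with which annotation and strand setting, is not given in the sources used here. Coordinates, transcript lengths and base composition came from GENCODE 29 on GRCh38, which held 99.5% of the identifiers. The transcript used was the longest coding one, which need not be the one expressed.

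TMM factors from edgeR 4.0.16 (R 4.3.3) scaled the counts, and other steps used Python 3.11.15 and scipy 1.17.1. No model with a p-value could be fitted to 1 library per group. Ratios have an exact 95% binomial interval (Clopper-Pearson, conditional on the sum), and gene pairs an exact conditional odds ratio interval. Both cover counting error only, and even that may be understated for reads that carry no molecular identifiers. TPM was computed from counts and lengths. The steps were tested on simulated data. Other settings were scaling by total counts, by DESeq2 1.42.0, by upper quartile, or by totals leaving out mitochondrial and the 20 most abundant genes. Further settings were no filter, a minimum of 10 CPM, a prior count of 2, summed near-identical copies and removal of a length trend. Removal of a GC trend was added after seeing the data.

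All members are named with a ratio and interval. Counts were to be given for those past 1.5-fold, XPA, the extremes of each branch and those under 1 CPM, and counts of others were added after their values were seen. Of the other repair genes those past 1.5-fold are named. The members and lists were chosen with earlier results of these data known.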

Additional observations from a re-analysis of the deposited data

How the results depend on the processing

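The count of members higher by the 1.5-fold rule was 1 under every alternative except the removal of the length trend, where it was 0, because SLX4 went from 1.60 to 1.49. By the interval rule 5 or 6 members were higher and 4 to 6 lower under all alternatives, and by the 2-fold rule none. Of the 11 members that passed the interval rule, none changed direction. The median log2 ratio of the members lay between -0.04 (length trend removed) and 0.05 (no filter), on either side of 0. A minimum of 10 CPM or no filter left the interval calls as they were. That is no separate check, because the filter does not enter a gene's ratio or interval. No paired analysis was possible because there was 1 library per group and the labels give no replicate numbers, and for the same reason no library could be left out. Depth limits the members with 107 or fewer counts in each library, whose intervals reach 1.5-fold or beyond.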
